A study of Mus musculus with 18 samples.

Results

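The comparison described here is the delayed response to transforming growth factor β1 (TGF-β1) of fibroblasts labelled as lacking nuclear factor I-C, the transcription factor encoded by Nfic. It uses 6 of the 18 Affymetrix arrays of the series: 3 from labelled knock-out cells that had received 12.5 ng/ml of TGF-β1 for 10 h and 3 from untreated labelled knock-out cells. The cells were primary mouse embryonic fibroblasts, grown from 14-day embryos without head and liver, and each of 3 knock-out embryos gave 1 array of each kind. All cultures, untreated ones included, had first spent 4 to 6 h in medium with an albumin and an insulin, transferrin and selenium supplement. The remaining arrays are 3 of the same knock-out embryos after 1 h of TGF-β1, and 9 from 3 wild-type embryos, untreated and after 1 h and 10 h, which enter as comparisons. Strain, sex and the deleted part of Nfic were not given in the sources used here, and cells left without TGF-β1 for the same hours were not analysed here. Each 10 h change therefore holds TGF-β1 and 10 h in culture together, and these cannot be told apart.

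TGF-β1 binds a complex of type I and type II serine/threonine kinase receptors on fibroblasts. The activated type I receptor phosphorylates SMAD2 and SMAD3, which join SMAD4 and act in the nucleus, and it also feeds MAP kinase cascades. In connective tissue the factor is known for driving matrix deposition and the contractile myofibroblast state of wound repair, and for slowing the division of many cell types. The study's question, as its labels give it, is how the immediate and the delayed response look with and without nuclear factor I-C.

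Values below are log2 expression levels, 1 probe set per gene, and a change is the 10 h level minus the untreated level of the same embryo. Changes carry their standard error from limma (n = 3 embryos), and a gene is said to have risen or fallen where the Benjamini-Hochberg adjusted p over all tested genes was under 0.05. Genes named outside the rule that is stated with the processing were chosen after their values were seen. The probe set read for Nfic stood at 10.43, 9.89 and 10.72 in the untreated cultures of embryos 1, 2 and 3 and at 10.03, 10.23 and 10.17 after 10 h, a change of -0.21 ± 0.14 (limma adjusted p = 0.272). The untreated wild-type cultures read 10.51, 10.36 and 10.49, so the values of both genotypes overlapped, and a probe set outside a deleted part checks nothing. Dimmer probe sets of Nfic changed by 0.45 ± 0.19, -0.11 ± 0.20, -0.17 ± 0.20 and 0.06 ± 0.12 in the labelled knock-out. None of them passed (lowest limma adjusted p over probe sets 0.0879), and their levels were not compared between the genotypes here. The genotype is given as labelled throughout. Fibroblast markers were bright: the summed level of 10 such genes, among them the collagens Col1a1, Col1a2 and Col3a1 and the intermediate filament gene Vim, lay between 15.99 and 16.16 on the 6 arrays, although 3 of the 10 fell (Pdgfra, S100a4 and, with embryo 1 only, Lum). Markers of endothelium, epithelium, skeletal muscle and red cells were dim, with summed levels from 4.61 to 8.20, and those of cartilage, neural and fat cells ranged from 7.06 to 10.76.

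The cultures were not alike in everything, and embryo 1 stood apart. Its 10 macrophage markers, such as the receptor Csf1r, the lysozyme Lyz2 and the complement gene C1qa, were all the highest of the 3 embryos before and after treatment. Their summed level was 14.42 untreated and 14.23 at 10 h in embryo 1, against 12.80 and 12.69 in embryo 2 and 13.23 and 13.25 in embryo 3. On the 10 h array of embryo 1, 157 genes lay more than 2-fold above both other 10 h arrays, where 6 and 3 genes did so for embryos 2 and 3. Of the 157, 16 belong to the list of chemokines and inflammatory genes, 9 to the interferon list and 6 to the macrophage markers, and 41 were already that high on the untreated array of embryo 1. Another 39 genes lay more than 2-fold below both other arrays. Of these, 26 were also that low on the 10 h array of wild-type embryo 2 against the other wild-type 10 h arrays, where 196 genes were. The wild-type embryo numbered 1 stood apart as well. Its summed macrophage marker level was 14.91 untreated and 14.80 at 10 h. Wild-type embryos 2 and 3 gave 13.62 and 13.39 untreated and 12.88 and 13.58 at 10 h. On its 10 h array 115 genes lay more than 2-fold above both other wild-type 10 h arrays, and 42 of the 157 were among them. Where leaving out knock-out embryo 1 ended a call of a gene named below, this is said beside it. Fewer macrophages and less RNA per cell cannot be told apart in cultures measured as a whole.

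Of 13679 tested genes, 5509 (40.3%) differed between 10 h of TGF-β1 and untreated cells in limma, 2192 higher (16.0%) and 3317 lower (24.2%). Changes of at least 2-fold were found for 369 genes in the upward direction (2.70%) and 528 in the downward direction (3.86%). The 3 treated and the 3 untreated arrays did not overlap at all for 6174 genes (45.1%). The median change over all tested genes was -0.03, and for the median gene the 95% interval reached 0.24 to each side. Among lists of 20 or more tested genes the fraction that passed was highest for mitosis, ribosome assembly and DNA replication, and the largest single changes were those of Aldh1a3, Dbp, Gjb2 and Olr1. The shares of 16.0% higher and 24.2% lower are the background for each count of list members below. Without embryo 1, 3965 genes passed, of which 3845 were among the 5509 with the same sign, and 871 of the 897 genes with at least a 2-fold change still passed.

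Aldh1a3, which encodes a retinaldehyde dehydrogenase that makes retinoic acid, gave the largest rise. It stood at 4.65, 3.93 and 3.96 in untreated cells of embryos 1, 2 and 3 and at 10.55, 9.79 and 10.11 after 10 h. Each embryo moved from a dim to a bright signal, a change of 5.97 ± 0.10 (limma adjusted p = 2.42e-12). Gjb2, the gap junction protein connexin 26, went from 7.24, 6.33 and 7.01 to 11.33, 10.90 and 11.37, a change of 4.34 ± 0.23. Olr1, a scavenger receptor for oxidised lipoprotein, went from 4.04, 3.98 and 4.12 to 8.74, 7.75 and 8.17, a change of 4.17 ± 0.36. Neither gene had an untreated value near its treated ones. The untreated values of Aldh1a3 and Olr1 lay near or below the level of 4.16 to 4.25. This level, the 40th percentile of the arrays, served as the limit for dim probe sets. The untreated means of Lce1f (3.84), Il6 (4.21) and Fgf2 (4.17), named below, lay there as well. The size and rank of the changes of these genes are limited by background.

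Secreted signals made up much of the rest of the 15 largest rises. Il11, an interleukin-6 family cytokine made by fibroblasts in response to TGF-β1, stood at 6.58, 6.24 and 6.69 and then at 10.51, 9.98 and 10.71 (3.90 ± 0.24). Fgf21, a hormone-like fibroblast growth factor, stood at 5.37, 5.38 and 5.56 and then at 9.37, 8.85 and 9.44 (3.78 ± 0.13). Il6 stood at 4.34, 4.42 and 3.87 and then at 9.54, 7.26 and 6.97 (3.71 ± 0.49). The 10 h groups of all 3 genes lay wholly above the untreated groups, which the choice of genes required. Il6 was far higher in embryo 1 than in the others, and without embryo 1 its change was 2.97 ± 0.37. Lif, a cytokine of the same family, rose from 6.13, 5.97 and 6.18 to 10.51, 8.68 and 8.77 (3.23 ± 0.32). Embryo 1 was again the high one, and the change of Lif without it was 2.65 ± 0.23. Hbegf, a membrane-anchored ligand of the epidermal growth factor receptor, was nearly the same in every embryo, at 9.56, 9.28 and 9.28 before and 13.02, 12.88 and 13.04 after (3.61 ± 0.11).

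The other large rises covered several functions. They were Egr2, an early growth response factor (3.79 ± 0.15), Nppb, the B-type natriuretic peptide (3.65 ± 0.23), and Tfpi2, a Kunitz-type protease inhibitor of the matrix (3.63 ± 0.30). Has2, the main hyaluronan synthase of fibroblasts, changed by 3.53 ± 0.23 and Sema7a, a membrane semaphorin that binds integrins, by 3.46 ± 0.17. Lce1f, a cornified envelope gene best known from skin, changed by 3.40 ± 0.14 and Dusp4, a MAP kinase phosphatase, by 3.28 ± 0.33. Adjusted p in limma lay at or under 7.19e-05 for each of the 15 genes, the value of Il6.

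Promoter windows of RefSeq (build GRCm38.p6, 250 bases before to 50 after the start site) were found for 10 of these 15 genes and were searched for a few short motifs on both strands. The AP-1 motif TGACTCA, bound by FOS and JUN factors, read TGAGTCA on the other strand, was present in 4 of the 10 (Olr1, Il11, Il6 and Lif), against 5.20% of all 32851 promoter windows. An amino acid response element, searched as ATTGCATCA or TTTGCATCA, the letters read by ATF4 and its partners, was present in Fgf21 and in 0.463% of all windows. A gene was counted if any of its windows held the motif, whereas the shares are per window, so the units differ. The letters CCAAT, read on either strand, were present in 5 of the 10 genes. Their share of all windows is given with the cell cycle genes below. The stretches around these matches are shown because they stand before the genes with the largest rises, with the motif in capitals. A match describes the letters and is no evidence of binding.
Olr1 (chr6:129507199-129507245, minus strand): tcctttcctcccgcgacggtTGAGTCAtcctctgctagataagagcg
Il11 (chr7:4778213-4778259, minus strand): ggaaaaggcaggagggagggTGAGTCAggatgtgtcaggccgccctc
Lif (chr11:4257320-4257366, plus strand): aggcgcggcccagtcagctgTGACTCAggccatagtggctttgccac
Fgf21 (chr7:45615602-45615650, minus strand): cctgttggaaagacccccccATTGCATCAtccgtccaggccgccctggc
Among all promoters of genes at least 2-fold higher, 7.40% held the AP-1 motif, and among those at least 2-fold lower 3.60%. The SMAD palindrome GTCTAGAC was found in 3 of 365 windows of the former (0.822%, against 0.213% of all windows), and the SMAD-binding CAGA box AGCCAGACA in 1 of 365 (0.274%, against 0.387%).

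**Figure D1:**
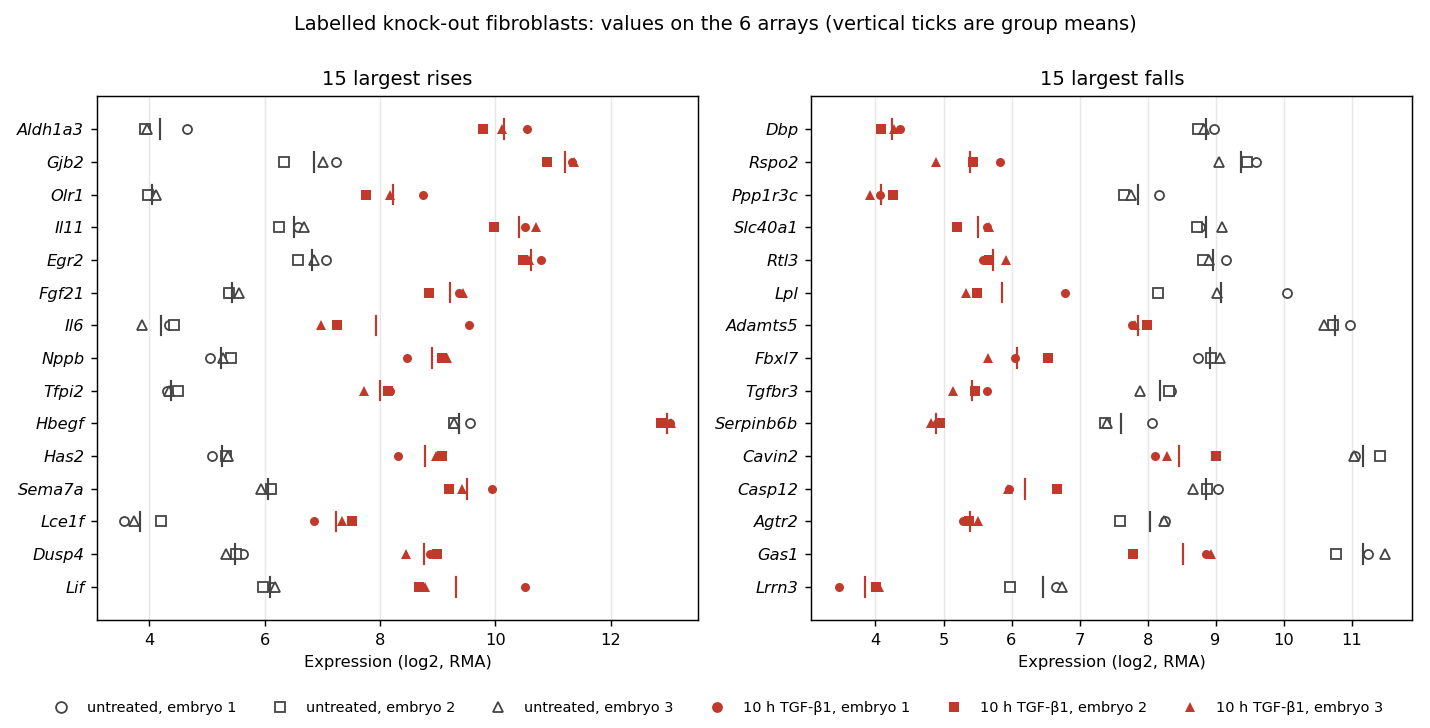
Log2 expression on the 6 arrays (horizontal axis) of the 15 genes with the largest rise (left) and the 15 with the largest fall (right) in labelled knock-out fibroblasts. Open symbols are untreated, filled symbols 10 h of TGF-β1, shapes mark the embryo and vertical ticks the group means; the treated and untreated groups lie apart for every gene shown, which the choice of genes required, and Il6 and Lif are highest in embryo 1.

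Dbp, a clock-controlled transcription factor, had the largest fall. It stood at 8.98, 8.74 and 8.83 in untreated cells and at 4.36, 4.08 and 4.27 after 10 h. All embryos dropped from a clear signal to the dim end of the array, a change of -4.61 ± 0.09 (limma adjusted p = 3.53e-12). Its treated values lay at the limit for dim probe sets, as did those of Ppp1r3c below, so these changes are limited by background as well. The same holds for Lrrn3, Rarb and Itgb8, named below, with 10 h means of 3.84, 3.83 and 3.57. Rspo2, a secreted enhancer of Wnt signalling, went from 9.59, 9.46 and 9.06 to 5.84, 5.44 and 4.88 (-3.99 ± 0.30). Ppp1r3c, which targets protein phosphatase 1 to glycogen, went from 8.17, 7.65 and 7.75 to 4.06, 4.26 and 3.92 (-3.78 ± 0.18). After 1 h, when 101 genes passed in all (0.738%), its change was -1.36 ± 0.18. Slc40a1, the iron exporter ferroportin, went from 8.77, 8.73 and 9.10 to 5.64, 5.20 and 5.67 (-3.36 ± 0.16). Groups did not overlap for Dbp, Rspo2, Ppp1r3c or Slc40a1, which the choice of genes required.

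Further large falls came from genes of lipid handling, the pericellular matrix and cell surface signalling. Lpl, the lipoprotein lipase, stood at 10.05, 8.16 and 9.02 and then at 6.79, 5.49 and 5.33 (-3.21 ± 0.15). Embryo 1 was highest before and after, and the groups did not overlap, as the choice of genes required. Adamts5, an aggrecanase, went from 10.97, 10.72 and 10.59 to 7.77, 7.99 and 7.82 (-2.90 ± 0.13). The fall of Gas1, a membrane coreceptor for Hedgehog, was -2.64 ± 0.21, and that of Agtr2, an angiotensin receptor, was -2.65 ± 0.29. Cavin2, a coat protein of caveolae, changed by -2.70 ± 0.19, and the inflammatory caspase gene Casp12 by -2.66 ± 0.18. Rtl3, a gene of retrotransposon origin, changed by -3.23 ± 0.21, the F-box gene Fbxl7 by -2.83 ± 0.16, the serpin Serpinb6b by -2.72 ± 0.17 and the leucine-rich repeat gene Lrrn3 by -2.62 ± 0.20.

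Genes of the TGF-β pathway itself responded in both directions. The cells made more message for the ligand they had been given: Tgfb1 stood at 8.25, 7.84 and 8.14 untreated and at 10.21, 9.92 and 10.20 after 10 h, a change of 2.03 ± 0.14 (limma adjusted p = 5.91e-07). Every treated value lay above every untreated one. Tgfb3 also rose (0.76 ± 0.14), with embryo 1 giving the smallest change. Tgfb2 was -0.46 ± 0.15 (adjusted p = 0.025) and did not pass when any 1 of the 3 embryos was left out. The latency protein Ltbp2, which tethers the family to the matrix, rose (0.98 ± 0.22), and Nrros, a latency protein of macrophages, fell (-1.06 ± 0.22). In all, 4 of 9 ligand and latency genes rose (44.4%) and 2 fell (22.2%, near the 24.2% of all tested genes), with a median of 0.18.

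Receptor genes changed in both directions. Tgfbr1, the type I receptor, rose from 9.16, 9.10 and 8.99 to 10.16, 10.16 and 10.50 (1.19 ± 0.11). Tgfbr2, the type II receptor, fell from 11.39, 11.11 and 11.11 to 10.49, 10.67 and 10.58 (-0.63 ± 0.10). Its other, dimmer probe set gave -0.01 ± 0.29 (limma adjusted p over probe sets 0.982), and Tgfbr2 did not pass with the mean of all its probe sets. Tgfbr3, the coreceptor betaglycan, fell from 8.35, 8.32 and 7.89 to 5.63, 5.47 and 5.14 (-2.77 ± 0.09). None of the 3 receptors showed overlap between the groups. With the activin receptors Acvr1 (0.84 ± 0.12) and Acvr2a (-0.79 ± 0.09), 5 of 13 receptor genes rose (38.5%) and 3 fell (23.1%, near the share of all genes), with a median of 0.14.

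Among the signal transducers, Smad3 fell by about the same amount in each embryo, from 9.23, 9.15 and 9.22 to 8.21, 7.97 and 8.26 (-1.06 ± 0.08). Smad2 (-0.06 ± 0.13, adjusted p = 0.732) and Smad4 (0.15 ± 0.08, 0.172) did not pass, and the sign of Smad2 turned without embryo 1 (0.12 ± 0.13). Smad7, the inhibitory SMAD that TGF-β1 induces, stood at 7.20, 7.16 and 7.02 untreated, 8.87, 8.68 and 8.97 at 1 h and 8.13, 8.35 and 8.23 at 10 h. Its change was 1.71 ± 0.11 at 1 h and 1.11 ± 0.11 at 10 h. Smad6, the inhibitory SMAD of the BMP branch, stood at 7.87, 7.51 and 7.35, then 8.75, 8.61 and 8.39, then 6.79, 7.19 and 7.09. It was 1.01 ± 0.15 above the untreated level at 1 h and -0.55 ± 0.15 from it at 10 h, and the latter did not pass without embryo 1 (-0.29 ± 0.13, adjusted p = 0.118). The 1 h and 10 h changes share their untreated arrays, so these values are given side by side.

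Feedback genes rose more than they fell in number. Of 14 SMAD corepressors, ubiquitin ligases and related inhibitors, 7 rose (50%) and 2 fell (14.3%), with a median of 0.44 against -0.03 over all tested genes. Smurf1, a ubiquitin ligase for SMADs and receptors, changed by 1.33 ± 0.09, Pmepa1, a receptor-proximal inhibitor, by 1.12 ± 0.11, and Ldlrad4, a related inhibitor, by 0.99 ± 0.08. Skil, the corepressor SnoN, stood at 10.06, 10.15 and 10.25 untreated, 11.02, 11.10 and 11.42 at 1 h and 11.20, 11.02 and 11.13 at 10 h. Its level at 10 h (0.97 ± 0.10) was close to that at 1 h (1.03 ± 0.10).

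Of 25 genes listed as direct TGF-β targets, 16 rose (64.0%, against 16.0% of all tested genes) and 3 fell (12%, against 24.2%), with a median of 0.58. Itga5, the fibronectin receptor subunit, went from 8.85, 8.89 and 8.70 to 11.78, 11.65 and 11.60 (2.86 ± 0.13). Sphk1, a sphingosine kinase, changed by 2.61 ± 0.10 and Tnc, the matrix protein tenascin C, by 1.50 ± 0.09. Ccn2, the connective tissue growth factor gene, went from 12.82, 12.36 and 12.53 to 14.01, 14.05 and 13.95 (1.44 ± 0.13). The 3 falling targets were Twist1 (-1.42 ± 0.13), Snai2 (-0.90 ± 0.14) and Id3 (-0.64 ± 0.22). Twist1 and Snai2 are mesenchymal transcription factors and Id3 an inhibitor of helix-loop-helix factors, and Id3 did not pass without embryo 1 (-0.49 ± 0.26). The cell cycle inhibitor Cdkn1a was 0.22 ± 0.08 (adjusted p = 0.0476) and did not pass without embryo 1 or without embryo 2.

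**Figure D2:**
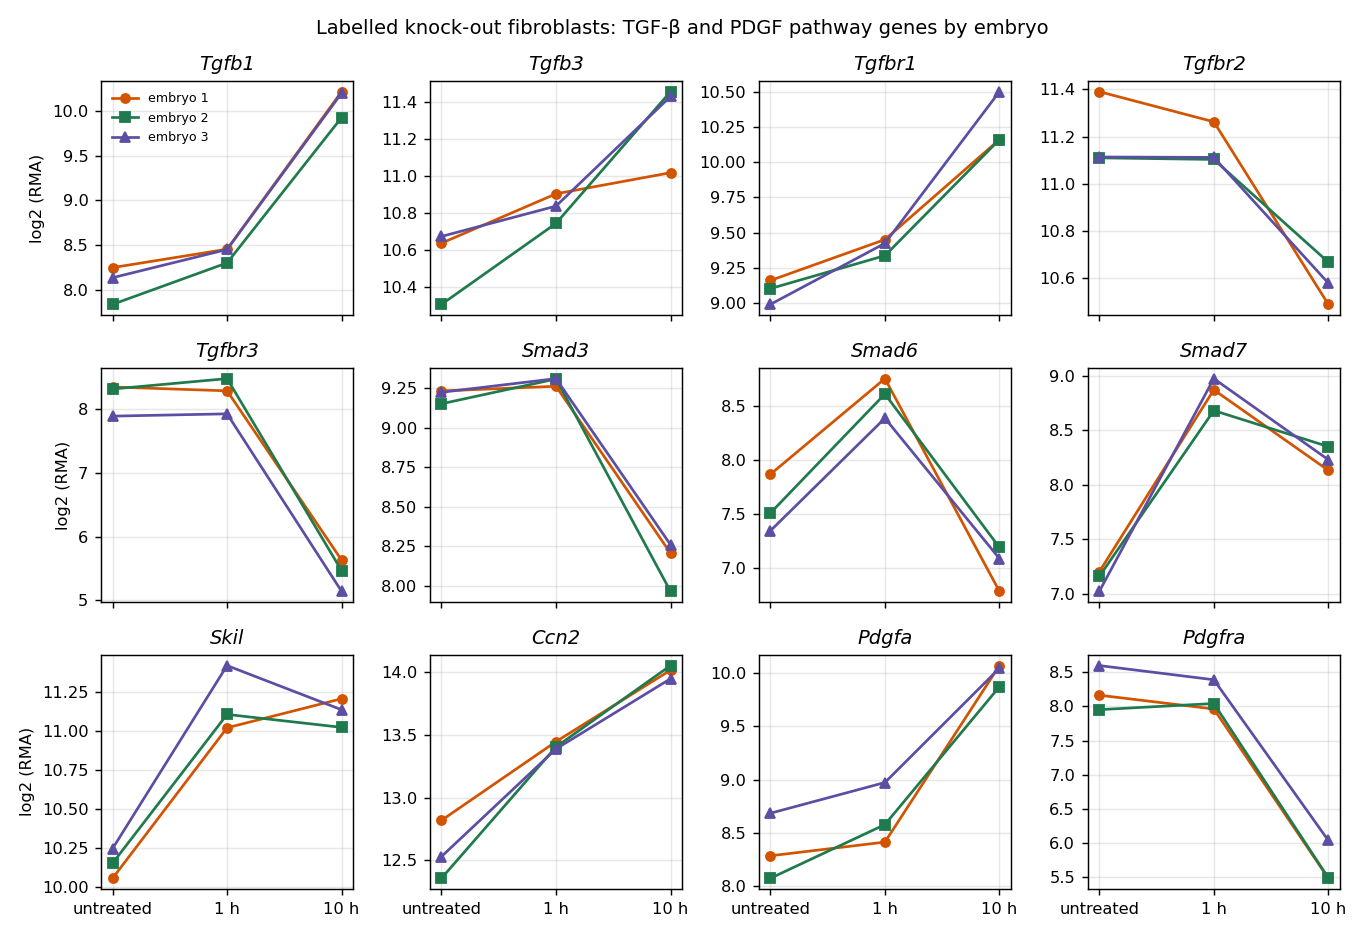
Log2 expression (vertical axis, a separate range per panel) of 12 TGF-β and PDGF pathway genes in labelled knock-out cells, untreated and after 1 h and 10 h of TGF-β1, with 1 line per embryo. Smad6 and Smad7 are highest at 1 h, Tgfb1, Tgfbr1 and Ccn2 are highest at 10 h, and Tgfbr3, Smad3 and Pdgfra stay level at 1 h and are lower at 10 h in every embryo.

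Other growth factor families also changed at the level of their ligands. Inhba, the activin A subunit, went from 10.51, 10.28 and 10.37 to 13.39, 13.14 and 13.07 (2.81 ± 0.10). The activin antagonists Fst (1.66 ± 0.13) and Fstl3 (1.48 ± 0.22) rose too, while Grem1, a BMP antagonist, fell (-0.89 ± 0.13). Bmp5 was the remaining rise of the group (0.87 ± 0.17), and the other 14 of 19 BMP and activin genes did not pass.

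In the PDGF family 3 ligands and the receptor-like Pdgfrl rose, and the ligand Pdgfd and the α receptor fell. Pdgfa went from 8.28, 8.07 and 8.68 to 10.07, 9.87 and 10.05 (1.65 ± 0.12), and Pdgfc from 10.84, 10.80 and 10.64 to 12.10, 12.09 and 12.15 (1.36 ± 0.11). Pdgfra went from 8.17, 7.95 and 8.60 to 5.48, 5.49 and 6.04 (-2.57 ± 0.12, limma adjusted p = 1.68e-08), without overlap. Pdgfb changed by 2.54 ± 0.33, but its 10 h values of 10.12, 7.60 and 7.33 were led by embryo 1, and without it the change was 1.86 ± 0.17. Pdgfrb, the β receptor, was 0.22 ± 0.10 (adjusted p = 0.0968) and did not pass.

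Ligands of other receptor tyrosine kinases gave further large rises, beside falls of some receptors. Vegfa, the main angiogenic factor, went from 7.70, 7.99 and 7.63 to 10.42, 10.26 and 10.28 (2.54 ± 0.11), and Flt1, its decoy receptor, changed by 2.0 ± 0.14. Vegfd (-1.83 ± 0.21) and Vegfb (-0.80 ± 0.12) fell, so that 4 of 13 genes of the group rose (30.8%) and 4 fell (30.8%). Among epidermal growth factor genes Ereg, the ligand epiregulin, rose (2.83 ± 0.37) with Hbegf, and the receptor Egfr fell (-0.72 ± 0.08). Fgf2 (2.61 ± 0.24) and Fgf18 (1.10 ± 0.22) rose with Fgf21, and the receptor Fgfr2 fell (-1.69 ± 0.17). Of 14 insulin-like growth factor genes 5 fell (35.7%) and 1 rose (7.14%), Igfbp3 (0.45 ± 0.15), which did not pass without embryo 1. Irs1, the insulin receptor substrate (-1.62 ± 0.16), and Igfbp5, a binding protein (-0.94 ± 0.09), gave the falls that passed also without embryo 1; Igf1 (-0.98 ± 0.24), Insr (-0.53 ± 0.15) and Igfbp4 (-0.56 ± 0.16) did not pass then.

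Early response and feedback genes were high at 10 h. Of 19 immediate early factors 13 rose (68.4%) and 0 fell, with a median of 0.88 (0.84 without embryo 1, when 10 rose). Egr2 stood at 7.06, 6.57 and 6.85 untreated, 9.26, 9.08 and 9.12 at 1 h and 10.79, 10.49 and 10.59 at 10 h, so every embryo was higher at 10 h than at 1 h. Junb, an AP-1 subunit, changed by 1.69 ± 0.17, Fosl1, another AP-1 subunit, by 1.59 ± 0.14 and Maff, a small Maf factor, by 1.89 ± 0.18. Fos itself was -0.16 ± 0.14 and did not pass. Of 15 MAP kinase feedback genes 9 rose, among them the phosphatases Dusp5 (2.62 ± 0.13) and Dusp6 (2.33 ± 0.17) and the Raf inhibitor Spred2 (1.34 ± 0.09). Spry2, of the Sprouty inhibitors, was the 1 gene of that list to fall (-1.20 ± 0.14).

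Within the interleukin-6 family 4 ligands rose and 3 receptors fell. Beside Il11, Il6 and Lif these were Clcf1 (1.07 ± 0.18) and, among receptors, Osmr (-0.57 ± 0.11). The ligand Ctf1 fell (-0.51 ± 0.12) but did not pass without embryo 1, and the signalling inhibitor Socs2 rose (2.49 ± 0.25). Il6st, the shared signalling receptor gp130, fell from 11.71, 11.45 and 11.42 to 9.88, 9.71 and 9.61 (-1.79 ± 0.10). Lifr, the receptor of LIF, fell from 8.33, 7.91 and 7.91 to 5.71, 5.61 and 5.69 (-2.38 ± 0.11). For both receptors the groups did not overlap. The median over the 14 genes was -0.01.

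Of 8 Hedgehog genes 5 fell (62.5%) and 0 rose, with a median of -0.87 against -0.03 over all tested genes. The transcription factor Gli2 went from 8.31, 8.19 and 8.56 to 6.60, 7.26 and 7.58 (-1.21 ± 0.15), the coreceptor Cdon changed by -1.06 ± 0.09 and the transducer Smo by -0.94 ± 0.14. Of 33 Wnt genes 10 fell (30.3%) and 7 rose (21.2%), shares near the 24.2% and 16.0% of all tested genes. Rspo3, like Rspo2 an R-spondin, changed by -1.94 ± 0.14 and the receptor Fzd4 by -1.03 ± 0.12, whereas the ligand Wnt9a rose (1.31 ± 0.15). Without embryo 1, 7 Wnt genes fell and 5 rose. Of 15 Notch genes 5 rose (33.3%) and 3 fell (20%), with the ligand Jag1 at 1.28 ± 0.18, the receptor Notch1 at 0.88 ± 0.14 and the targets Hey1 and Hes1 at 1.30 ± 0.18 and 0.96 ± 0.14.

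Of 26 Hox genes, which mark position along the body and limb axes, 15 fell (57.7%, against 24.2% of all tested genes) and 1 rose, with a median of -0.47. Hoxa9 went from 8.54, 9.0 and 8.90 to 7.15, 7.76 and 7.48 (-1.35 ± 0.11), and Hoxa7 (-1.23 ± 0.08), Hoxc8 (-1.25 ± 0.13) and Hoxc5 (-1.05 ± 0.11) fell as well. The rise was Hoxb2, from 7.75, 7.89 and 7.26 to 8.74, 8.60 and 8.66 (1.03 ± 0.14), singled out after its values were seen. Of 27 mesenchymal and lineage factors 8 fell (29.6%) and 7 rose (25.9%). Prrx1, a limb and craniofacial mesenchyme factor, went from 10.69, 10.69 and 10.998 to 8.62, 9.31 and 9.01 (-1.82 ± 0.14) and Sox4 changed by -1.26 ± 0.09. Foxc2 (1.51 ± 0.10) and Meox1 (2.14 ± 0.16), a homeobox factor of somite derivatives, rose.

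The 3 other members of the nuclear factor I family fell together. Nfia went from 8.36, 7.83 and 8.62 to 6.42, 6.16 and 6.76 (-1.83 ± 0.12), Nfib from 9.71, 9.39 and 10.03 to 7.77, 8.33 and 8.38 (-1.55 ± 0.18), and Nfix from 11.91, 11.58 and 12.05 to 10.46, 10.85 and 10.83 (-1.13 ± 0.18). Limma adjusted p was 3.35e-07, 2.65e-05 and 0.00026, and no treated value reached an untreated one of the same gene. In wild-type cells the same changes were -1.71 ± 0.12, -2.06 ± 0.18 and -1.17 ± 0.18.

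Matrix genes changed selectively. The fibrillar collagen list gave 3 rises (18.8%) and 1 fall (6.25%) in 16 genes, and its median was 0.08. Col5a3, a minor fibril chain, was the rise that also passed without embryo 1 (1.44 ± 0.19). Col1a1 (-0.01 ± 0.11, adjusted p = 0.949), Col1a2 (-0.01 ± 0.08) and Col3a1 (-0.05 ± 0.08) did not pass. The Col1a1 probe set read from 13.61 to 13.99 on the 6 arrays, near the highest value of any array, 14.47, and whether it was saturated was not tested. Its sign also turned in several settings, and its other, dimmer probe set gave 0.88 ± 0.34 (adjusted p = 0.0627 over probe sets). Among 14 other collagens Col8a2, a short-chain network collagen, stood out at 2.53 ± 0.24, with 6.15, 4.76 and 6.25 before and 8.17, 8.22 and 8.35 after. Col6a3, of the microfibrillar collagen VI, rose by 0.57 ± 0.08. The crosslinking enzymes Loxl3 (0.80 ± 0.11) and Loxl1 (0.52 ± 0.12) rose and the transglutaminase Tgm2 fell (-0.68 ± 0.18), but Tgm2 did not pass without embryo 2 or embryo 3.

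Non-collagen matrix genes gave larger changes. Eln, the elastin gene, stood at 7.21, 5.48 and 8.10 and then at 9.80, 8.82 and 10.33; its embryos differed widely, but each rose, by 2.72 ± 0.37. Of 31 glycoprotein genes 9 rose (29.0%) and 6 fell (19.4%), with the matricellular Ccn4 at 1.30 ± 0.10 and the laminin chain Lama4 at -1.10 ± 0.12. Of 25 proteoglycan and hyaluronan genes 10 fell (40%, against 24.2% of all tested genes) and 3 rose (12%), with a median of -0.18, but without embryo 1 3 fell and 3 rose. Ogn and Omd, small leucine-rich proteoglycans, changed by -1.34 ± 0.22 and -0.82 ± 0.14, whereas Tnfaip6, which modifies hyaluronan, changed by 1.23 ± 0.20.

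Matrix proteases and their inhibitors changed in both directions, with 11 of 27 higher (40.7%) and 9 lower (33.3%). The aggrecanase and versicanase genes Adamts5 and Adamts1 fell (-2.31 ± 0.16 for the latter). Timp3, a metalloproteinase inhibitor bound to the matrix, rose from 10.23, 9.66 and 10.07 to 12.22, 12.01 and 12.12 (2.13 ± 0.13), and Adam12, a membrane metalloproteinase, rose by 2.02 ± 0.11. Mmp9, the gelatinase B, stood at 4.73, 4.61 and 4.73 and then at 9.14, 6.51 and 6.41, highest in embryo 1. Its change was 2.66 ± 0.49 with embryo 1 and 1.79 ± 0.29 without. Mmp3, stromelysin, passed only with embryo 1, at 1.07 ± 0.35 against 0.34 ± 0.19 (adjusted p = 0.214).

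The contractile and actin cytoskeleton genes rose in small steps. Of 31 such genes 17 rose (54.8%, against 16.0% of all tested genes) and 1 fell (Myh10, -0.49 ± 0.17, not passed without embryo 1), with a median of 0.30. Cnn1, the smooth muscle calponin, went from 10.72, 10.81 and 10.74 to 11.96, 11.82 and 12.25 (1.25 ± 0.23). Tagln2 (1.24 ± 0.12), Csrp1 (0.96 ± 0.10), Smtn (1.02 ± 0.14) and Vcl, the focal adhesion protein vinculin (0.53 ± 0.08), rose. Acta2, smooth muscle actin and the usual myofibroblast marker, stood at 13.95, 13.99 and 13.98 and then at 14.12, 14.18 and 14.15. Its groups did not overlap, but the change of 0.18 ± 0.07 did not pass (adjusted p = 0.0696), and the probe set lies near the top of the array's range. Its 2 dimmer probe sets gave 1.31 ± 0.41 and 0.89 ± 0.27 (limma adjusted p over probe sets 0.0274 and 0.0236). Of 23 integrin and focal adhesion genes 9 rose (39.1%) and 2 fell (8.70%). Itgb3, the β3 subunit, went from 5.97, 6.55 and 6.86 to 8.99, 8.95 and 9.0 (2.52 ± 0.26), Ilk, the integrin-linked kinase, changed by 0.57 ± 0.08 and Itgb8, an activator of latent TGF-β, by -1.26 ± 0.15.

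Genes of cell division fell almost throughout. Of 29 mitotic genes 28 fell (96.6%, against 24.2% of all tested genes) and 0 rose, with a median of -0.90, and of 33 DNA replication genes 26 fell (78.8%) and 0 rose, with a median of -0.66. Mki67, the proliferation marker Ki-67, went from 9.96, 9.01 and 9.80 to 8.18, 8.11 and 8.46 (-1.34 ± 0.13). Birc5, survivin (-1.07 ± 0.10), Bub1b, of the spindle checkpoint (-1.11 ± 0.10), and the mitotic kinesins Kif20a (-1.09 ± 0.10) and Kif23 (-0.84 ± 0.08) fell. Mcm7, of the replicative helicase, went from 10.48, 10.09 and 10.50 to 9.23, 9.12 and 9.40 (-1.11 ± 0.08). Tk1, thymidine kinase, changed by -1.73 ± 0.12, the clamp loader gene Rfc5 by -1.19 ± 0.09 and the polymerase gene Pole by -1.20 ± 0.10. Foxm1 was the mitotic gene that did not pass (-0.16 ± 0.10). Without embryo 1, 24 mitotic and 23 replication genes passed as lower, with medians of -0.84 and -0.59. The regulators around the cycle were mixed: 11 of 23 genes of this list fell (47.8%) and 7 rose (30.4%), and without embryo 1 6 fell and 5 rose. Cdkn2c, the inhibitor p18, was -0.93 ± 0.11 and cyclin gene Ccng2 -0.71 ± 0.09, while the stress genes Gadd45a and Gadd45b were 1.34 ± 0.14 and 1.45 ± 0.19.

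The promoters of these genes hold motifs known from cell cycle genes. The cell cycle homology region was searched as TTTGAA, the core bound by DREAM and MuvB complexes, and the CCAAT box, bound by NF-Y, as CCAAT, each on both strands, so that TTCAAA and ATTGG count as well. ATTGG can overlap the TTGGC of a nuclear factor I site. TTTGAA was present in 75.0% of the 24 promoter windows of mitotic genes against 17.9% of all windows, and CCAAT in 75.0% against 37.4%. Of 23 falling mitotic genes with a window, 15 held both in the same window, for any window of the gene. Of all windows 6.95% held both, a share per window and not per gene. E2F motifs, searched as TTTCCCGC, TTTGGCGC or TTTCGCGC, were present in 40.6% of the 32 windows of DNA replication genes against 1.84% of all. The stretches below show 1 or more of each kind, with the motif letters in capitals on the strand of the gene. These sequences describe the windows, and the list's members were known cell cycle genes, so the shares are not independent evidence.
Mki67 (chr7:135716452-135716587, minus strand): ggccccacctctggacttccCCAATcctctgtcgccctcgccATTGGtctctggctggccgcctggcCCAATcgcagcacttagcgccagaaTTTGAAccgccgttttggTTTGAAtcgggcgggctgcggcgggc
Ccnb2 (chr9:70421555-70421741, minus strand): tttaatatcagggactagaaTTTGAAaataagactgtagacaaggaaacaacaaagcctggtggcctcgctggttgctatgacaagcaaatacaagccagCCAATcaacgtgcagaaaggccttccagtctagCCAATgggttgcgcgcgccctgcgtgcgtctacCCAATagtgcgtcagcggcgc
Kif11 (chr19:37376317-37376381, plus strand): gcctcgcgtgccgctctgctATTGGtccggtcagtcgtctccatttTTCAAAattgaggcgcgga
Rfc3 (chr5:151651209-151651238, minus strand): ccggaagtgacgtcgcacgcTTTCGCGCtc
Pola1 (chrX:93632266-93632313, minus strand): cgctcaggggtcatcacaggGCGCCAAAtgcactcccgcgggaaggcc
Mcm7 (chr5:138172021-138172068, minus strand): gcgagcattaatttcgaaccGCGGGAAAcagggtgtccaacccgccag
The changes of the genes shown were -1.34 ± 0.13 for Mki67, -1.33 ± 0.14 for the cyclin gene Ccnb2 and -1.20 ± 0.15 for the spindle motor Kif11. For the clamp loader Rfc3 it was -1.30 ± 0.31, and for the polymerase α subunit Pola1 -1.15 ± 0.11.

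Genes of ribosome assembly moved the other way from cell division. Of 27 ribosome biogenesis genes 23 rose (85.2%) and 0 fell, with a median of 0.63. Rrp12 went from 5.95, 5.54 and 6.10 to 7.24, 6.83 and 7.17 (1.21 ± 0.13), and Nop2, a ribosomal RNA methyltransferase (0.77 ± 0.07), Gar1 (0.72 ± 0.08) and Mybbp1a (0.67 ± 0.07) rose. Of 20 cytosolic ribosomal protein genes 0 rose and 2 fell, Rps24 (-0.38 ± 0.08) and Rpl22 (-0.25 ± 0.08), with a median of -0.06; Rpl22 did not pass without embryo 1 or without embryo 2, and Rps24 did not pass with the mean of all its probe sets.

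Genes of amino acid supply and protein folding rose too. Of 25 genes of the ATF4 and amino acid list 13 rose (52.0%) and 4 fell (16.0%), led by Slc7a1, an arginine transporter (0.88 ± 0.07), Cth, cystathionine γ-lyase (1.44 ± 0.19), and the mitochondrial folate enzymes Shmt2 (0.67 ± 0.09) and Mthfd2 (0.66 ± 0.10). Of 18 aminoacyl tRNA synthetase genes 10 rose (55.6%) and 0 fell, with Tars at 0.92 ± 0.08. Of 25 endoplasmic reticulum chaperone and folding genes 15 rose and 0 fell, with a median of 0.53. Creld2 went from 8.88, 8.64 and 8.55 to 9.87, 9.86 and 9.84 (1.17 ± 0.09), without overlap. Hspa5, the chaperone BiP (0.84 ± 0.07), Manf (0.97 ± 0.08) and Syvn1, a ubiquitin ligase of the degradation pathway (1.05 ± 0.10), rose as well. The CCAAT letters were present in 85.7% of the 21 promoter windows of this last list, against 37.4% of all.

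Circadian clock genes gave large changes in both directions. Arntl, the activator BMAL1, rose from 7.24, 7.30 and 7.07 to 9.30, 9.48 and 9.38 (2.18 ± 0.10). Besides Dbp, Nr1d2, a REV-ERB repressor that acts on Arntl, fell from 9.58, 9.50 and 9.41 to 8.0, 7.96 and 7.75 (-1.59 ± 0.09), and Tef, a relative of Dbp, changed by -1.15 ± 0.07. In all, 6 of 19 clock genes rose (31.6%) and 8 fell (42.1%). Cry1, a late repressor of the loop (1.67 ± 0.14), Nfil3 (1.94 ± 0.13) and Bhlhe40 (2.19 ± 0.21), singled out after their values were seen, were among the rises. Time in culture cannot be told apart from treatment for these genes either.

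Of 17 retinoic acid genes 4 rose (23.5%) and 4 fell (23.5%), with a median of -0.03. Aldh1a3 was joined by Aldh1a2 (1.49 ± 0.24), another retinaldehyde dehydrogenase. Rarb, a retinoic acid receptor, fell from 6.49, 6.31 and 6.27 to 3.80, 3.93 and 3.76 (-2.53 ± 0.10), and so did Dhrs3, which turns retinaldehyde back to retinol (-1.94 ± 0.12), and the receptor gene Rxra (-0.67 ± 0.09). The receptor gene Rara rose (0.53 ± 0.13) but did not pass without embryo 1.

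Slc2a1, the glucose transporter GLUT1, rose from 9.32, 9.81 and 9.32 to 11.30, 11.20 and 10.98 (1.68 ± 0.11) and Hk2, a hexokinase, rose by 1.46 ± 0.18. Adm, adrenomedullin, fell from 8.49, 8.78 and 8.45 to 6.35, 6.26 and 6.19 (-2.30 ± 0.14) in the same list of glycolysis and hypoxia genes, where 6 of 24 rose (25.0%) and 7 fell (29.2%), the latter near the 24.2% of all tested genes. Of 19 fatty acid genes 7 fell (36.8%; 4 without embryo 1), with the phosphatidate phosphatase Lpin1 at -1.67 ± 0.19 and the elongases Elovl6 and Elovl5 at -1.39 ± 0.25 and -1.04 ± 0.10. Of 28 antioxidant genes 13 fell (46.4%, against 24.2% of all tested genes) and 2 rose (7.14%, against 16.0%), with Mgst1 at -1.85 ± 0.17, the selenium carrier Selenop at -0.93 ± 0.09 and glutathione reductase Gsr at -0.69 ± 0.08. Of 24 lysosome and autophagy genes 4 fell (16.7%) and 1 rose (4.17%), both below the shares of all tested genes. The rise was the autophagy receptor gene Sqstm1 (0.52 ± 0.15), which did not pass without embryo 1 or without embryo 3, and without embryo 1 the list had 1 fall and 0 rises.

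Some genes usually tied to other tissues rose. Of 17 keratinocyte and desmosome genes 8 rose (47.1%) and 0 fell, with Pkp1, a plakophilin, going from 6.10, 6.13 and 6.18 to 8.70, 7.84 and 8.66 (2.27 ± 0.18). Sfn, stratifin (1.86 ± 0.25), and the keratin Krt19 (0.81 ± 0.11) rose with Lce1f. Of the 4 epithelial markers tested 1 rose, the keratin Krt18, from a mean of 4.85 to 5.76 (a change of 0.91). The epithelial markers Epcam (0.02 ± 0.13) and Krt5 (0.18 ± 0.09) did not pass. Their values on the 6 arrays lay between 6.02 and 6.46 for Epcam and between 4.31 and 4.61 for Krt5. Among fat cell regulators Cebpb (0.99 ± 0.20) and Cebpa (0.81 ± 0.23, not passed without embryo 2) rose and Ebf1 (-0.79 ± 0.14) fell with Lpl. Of the 6 connexins tested Gjb2 and Gja3 rose, but Gja3 did not pass without embryo 1 (0.29 ± 0.11). The untreated mean of Gja3 (4.01) lay below the limit for dim probe sets.

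**Figure D3:**
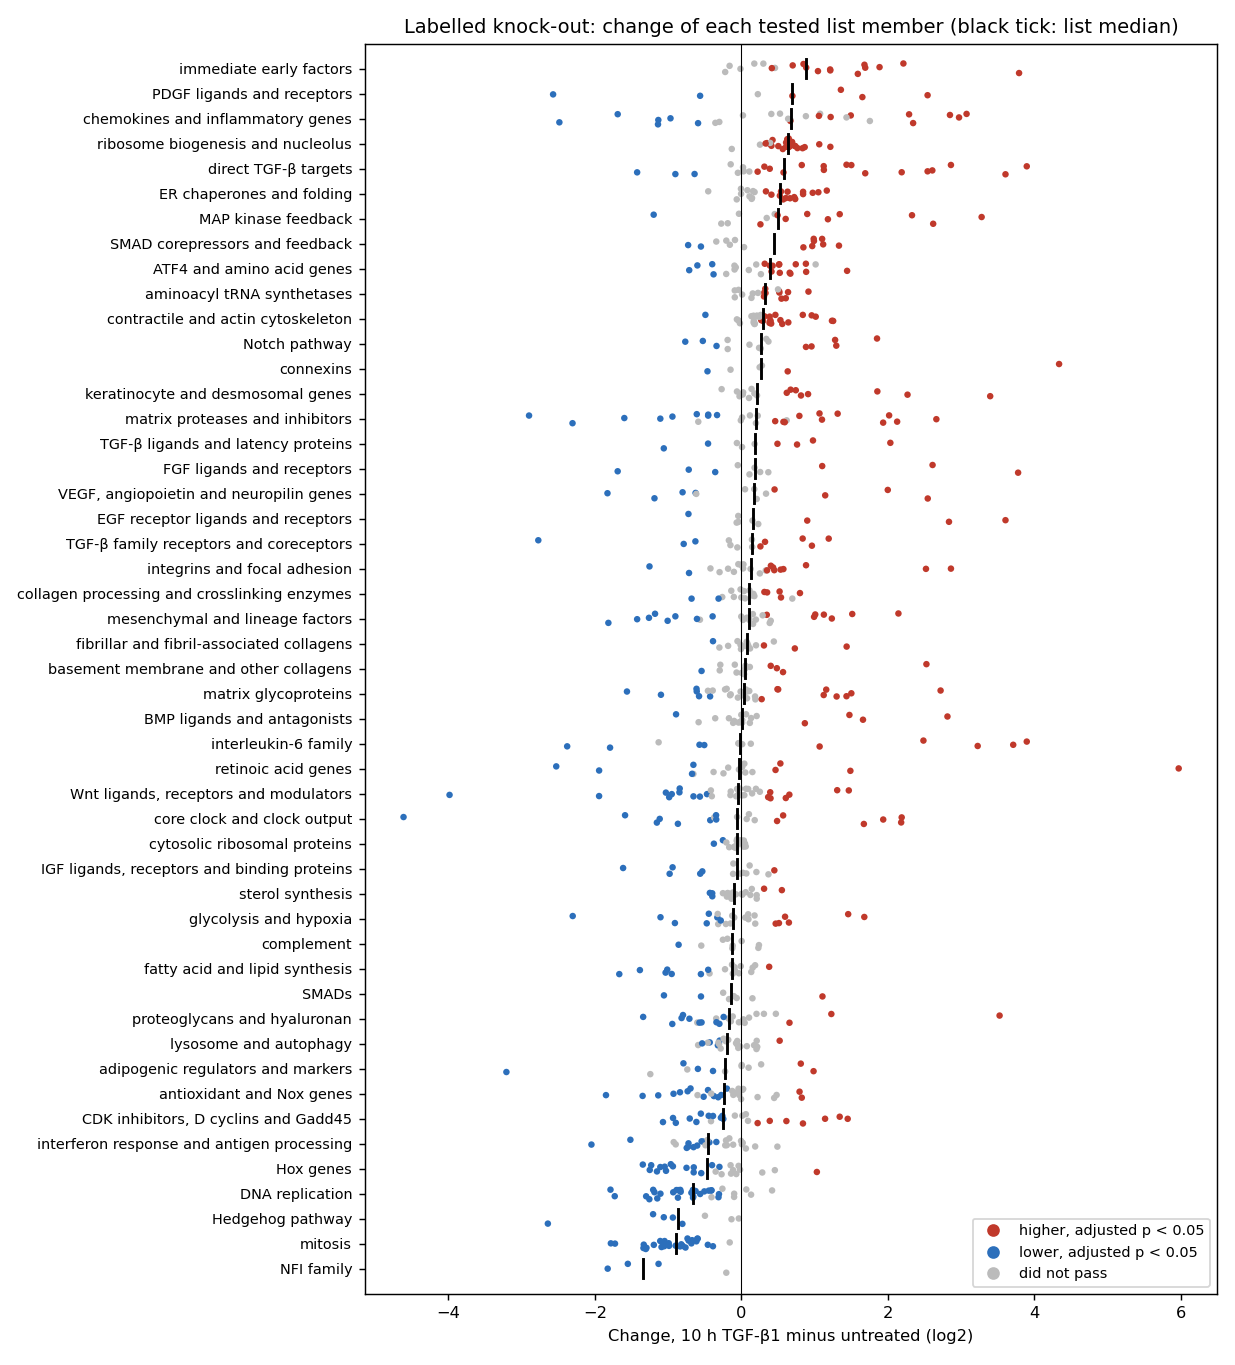
Change from untreated to 10 h of TGF-β1 (horizontal axis, log2) of each tested member of 49 gene lists in labelled knock-out cells, with red points higher, blue points lower and grey points not passed, and a black tick at the list median. Lists are ordered by median, from immediate early factors at 0.88 to the nuclear factor I family at -1.34; mitosis and DNA replication hold no red point, and ribosome biogenesis and endoplasmic reticulum folding no blue point.

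Inflammatory genes differed between the embryos. Of 26 chemokine and inflammatory genes 9 rose (34.6%) and 6 fell (23.1%) with a median of 0.67, and without embryo 1 8 rose and 5 fell with a median of -0.03. Ptgs2, the inducible prostaglandin synthase, rose alike in all embryos, from 9.47, 9.89 and 9.17 to 12.64, 12.54 and 12.28 (2.97 ± 0.15). Cx3cl1, the chemokine fractalkine, did as well, from 7.37, 6.41 and 6.62 to 10.40, 9.43 and 9.12 (2.85 ± 0.18). The chemokine Cxcl12 fell in all embryos, from 12.34, 12.18 and 12.17 to 11.09, 11.45 and 11.25 (-0.97 ± 0.12), and Ccl9 fell too (-1.69 ± 0.27).

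Others rose in all embryos but by unlike amounts. Ccl20 went from 5.23, 4.58 and 4.43 to 10.57, 6.22 and 6.67, a change of 3.08 ± 0.63 with embryo 1 and 1.94 ± 0.25 without. Ccl2 went from 8.64, 8.19 and 7.25 to 13.21, 8.99 and 8.91, a change of 2.35 ± 0.64 and 1.23 ± 0.28. The treated values of embryo 1 lay far above those of embryos 2 and 3 for both chemokines. Tnfaip3, a brake on NF-κB signalling, changed by 2.29 ± 0.42 with and 1.61 ± 0.14 without embryo 1.

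A further set was high at 10 h in embryo 1 alone. Saa3, an acute phase protein, read 5.14, 4.79 and 4.86 untreated and 10.55, 4.84 and 4.65 after 10 h. Cxcl10 read 5.61, 4.79 and 4.72 and then 9.91, 4.76 and 4.75, and Ccl3 read 7.27, 5.17 and 5.39 and then 11.52, 3.76 and 4.03. Embryos 2 and 3 stayed near or below their untreated values in these 3 genes, none of which passed (limma adjusted p = 0.13, 0.122 and 0.752). Without embryo 1, Ccl3 passed as lower (-1.38 ± 0.32, limma adjusted p = 0.00902). The 10 h values of Ccl3 in embryos 2 and 3 lay below the limit for dim probe sets, so this change is limited by background. At 1 h embryo 1 read 4.85, 5.45 and 4.70 for the same genes, within 1 log2 unit of the other embryos. The wild-type 10 h cultures read 5.18, 4.77 and 4.99 for Saa3 and 5.28, 4.99 and 4.78 for Cxcl10. The summed macrophage marker level of embryo 1 was as high untreated (14.42) as at 10 h (14.23), and its part in these values was not tested. Of the 157 genes high on this array 37 were among those that rose and 20 among those that fell, and without embryo 1 24 passed as higher and 32 as lower.

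Of 26 interferon response genes 11 fell (42.3%, against 24.2% of all tested genes), 15 did not pass and 0 rose, with a median of -0.45, and without embryo 1 14 fell with a median of -0.64. Ifit2, an interferon-induced protein, went from 7.17, 6.77 and 6.98 to 5.37, 4.83 and 4.57 (-2.05 ± 0.14). Ifit3 went from 8.10, 7.69 and 7.24 to 7.42, 5.81 and 5.25 (-1.52 ± 0.27), and -1.94 ± 0.21 without embryo 1. Ifit1 went from 6.68, 5.53 and 5.87 to 7.36, 4.05 and 3.89, so embryo 1 was higher after treatment and the others lower. It did not pass with embryo 1 (-0.92 ± 0.54, adjusted p = 0.2) and passed without (-1.73 ± 0.47, 0.0184). The 10 h values of Ifit1 in embryos 2 and 3 lay below the limit for dim probe sets, so the latter change is limited by background. The peptide transporter gene Tap1 (-0.75 ± 0.09) and the proteasome gene Psmb10 (-0.52 ± 0.10) fell. Of 9 complement genes 1 fell, the lectin pathway protease Masp1 (-0.86 ± 0.12).

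**Figure D4:**
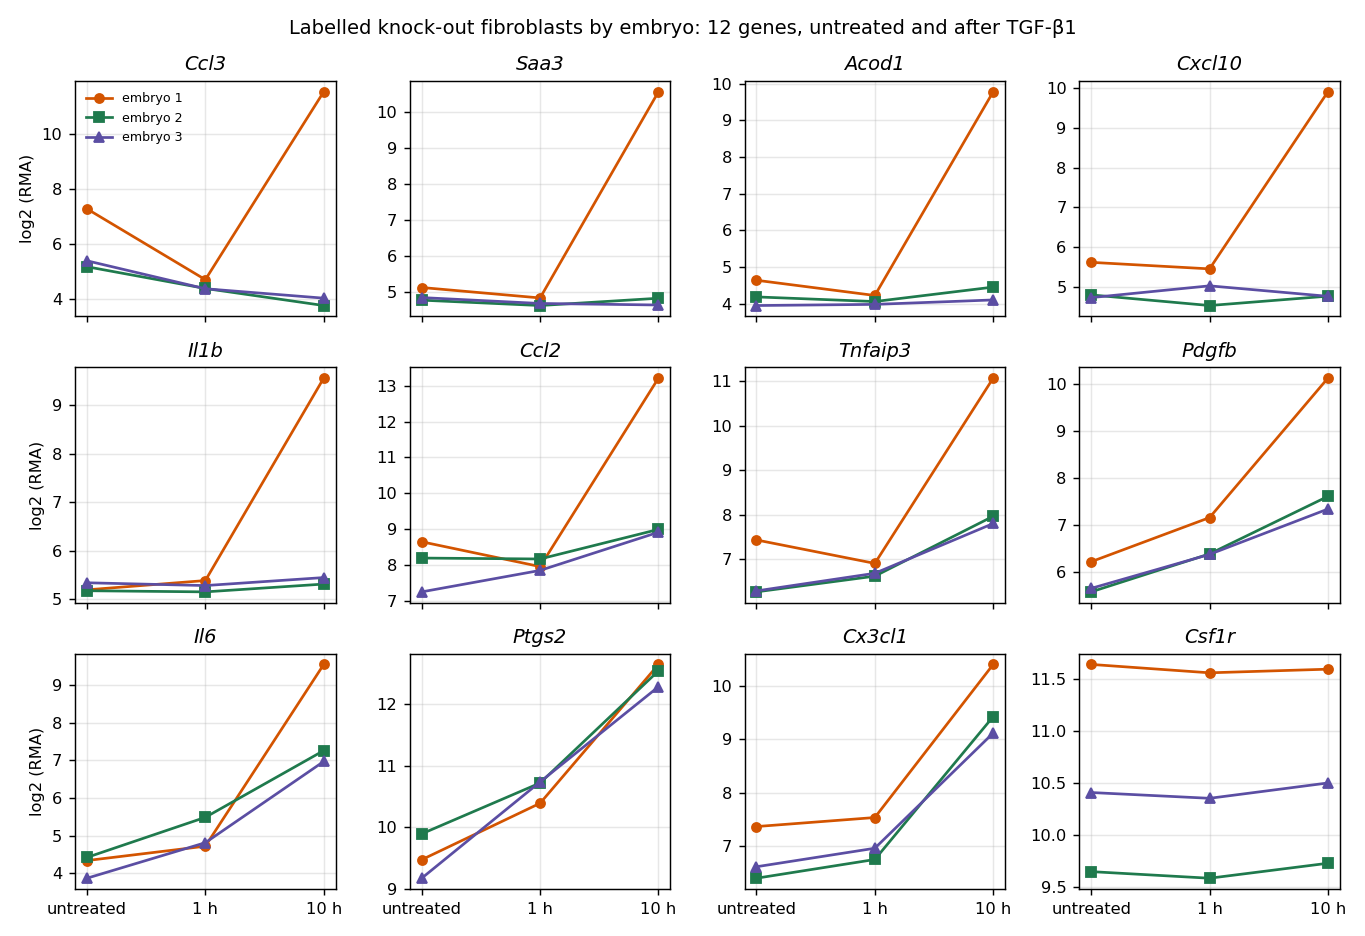
Log2 expression (vertical axis, a separate range per panel) of 12 genes in labelled knock-out cells, untreated and after 1 h and 10 h of TGF-β1, with 1 line per embryo. Ccl3, Saa3, Acod1, Cxcl10 and Il1b are high at 10 h in embryo 1 alone, and Ccl2, Tnfaip3, Pdgfb and Il6 are higher in all embryos and most in embryo 1. Ptgs2 and Cx3cl1 are higher at 10 h than untreated in every embryo, with Cx3cl1 highest in embryo 1 untreated and at 10 h. The macrophage receptor gene Csf1r is highest in embryo 1 at every time.

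The response of the labelled knock-out was set against that of wild-type cells, which shares no array with it. In wild type 5492 genes passed (40.1%), 2400 higher and 3092 lower. Of these, 4401 passed in both genotypes in the same direction, 79.9% of the knock-out list and 80.1% of the wild-type list, and 1 gene, Myl10, passed in opposite directions (0.33 ± 0.07 in the knock-out and -0.20 ± 0.07 in wild type). The knock-out means of Myl10, 4.10 untreated and 4.43 at 10 h, lay near the limit for dim probe sets. Its changes are therefore limited by background. Of the 897 genes with at least a 2-fold change in the knock-out, 877 passed in wild type in the same direction, as did all 30 genes with the largest changes. Across the tested genes the changes correlated at Pearson's r = 0.94 and Spearman's rho = 0.89; genes are not independent replicates and arrays of a group share their normalization.

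The test of the difference itself called no gene. With limma 0 of 13679 genes (0%) passed for the 10 h change in the labelled knock-out minus that in wild type, and 485 had an unadjusted p under 0.05. No other setting tried gave any. For 96.3% of genes the 95% interval of that difference held no value beyond a 2-fold one. The smallest p belonged to Kcnmb4, a potassium channel subunit, which changed by -1.11 ± 0.08 in the knock-out and -0.50 ± 0.08 in wild type (difference -0.62 ± 0.12, adjusted p = 0.995). Among the 5 smallest p were also Ppp1r3c with -3.78 ± 0.18 and -2.51 ± 0.18 (difference -1.27 ± 0.25), and Elobl with -1.73 ± 0.10 and -1.09 ± 0.10 (difference -0.64 ± 0.14). The light chain gene Myl10, dim as said above, and Sytl1, a synaptotagmin-like gene, had differences of 0.53 ± 0.10 and -0.75 ± 0.16. For genes of the pathway the differences were -0.06 ± 0.20 for Tgfb1, -0.17 ± 0.15 for Smad7, 0.09 ± 0.16 for Pdgfa, -0.09 ± 0.17 for Pdgfra and -0.09 ± 0.18 for Ccn2. These intervals leave room for modest differences, and a missed threshold does not show that the genotypes respond alike.

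**Figure D5:**
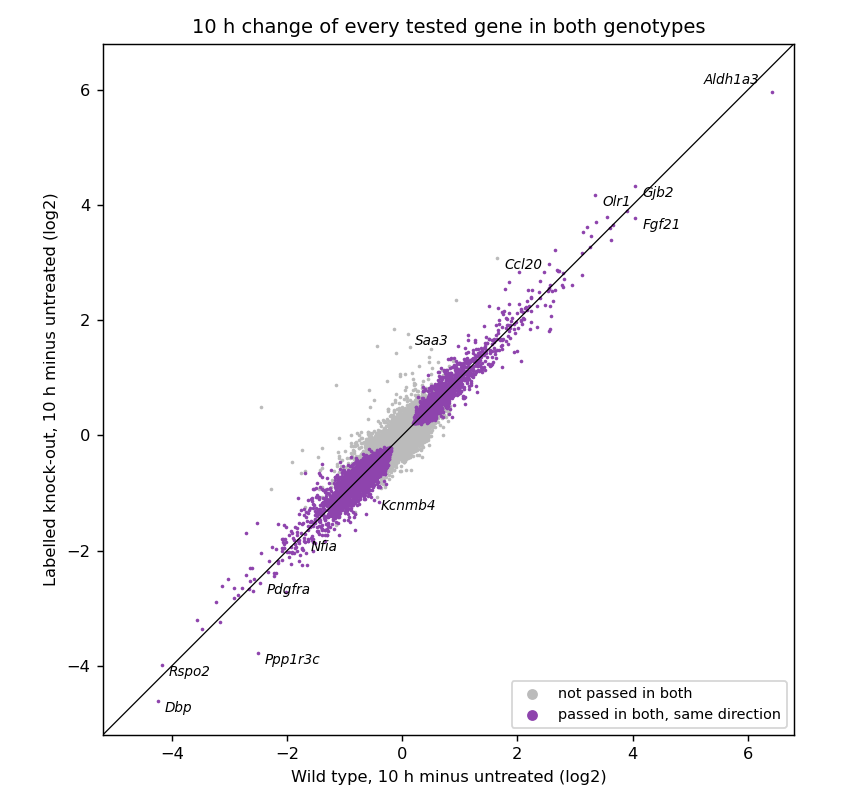
Change from untreated to 10 h of TGF-β1 of every tested gene (log2) in wild type (horizontal axis) and in the labelled knock-out (vertical axis), with purple points for the 4401 genes that passed in both in the same direction, grey points for the rest and a line at equal change. The cloud follows the line from Dbp to Aldh1a3, with Ppp1r3c below it and Ccl20 above it.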

How the data were processed

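The deposited values are log2 expression levels per probe set, made by the authors with RMA (version not given in the sources used here), per the submitters' processing notes; they were used as they stand, and array intensities behind them were not used here. Of 45101 probe sets 34958 carried 1 gene symbol, 932 several and 9211 none in the platform annotation, and 34754 of the former matched RefSeq. The brightest single-symbol probe set by mean over 18 arrays stood for each of 18195 genes, and 13679 genes above the array's 40th percentile (4.16 to 4.25) on at least 3 arrays were tested. Limma 3.58.1 in R 4.3.3 (lmFit, eBayes) fitted the 6 groups over 18 arrays with the embryo as a block (8 residual degrees of freedom), with Benjamini-Hochberg adjustment over all tested genes and a threshold of 0.05. The embryo numbers come from the labels; the deviations of untreated and 10 h arrays of the same knock-out embryo correlated at 0.39, 0.34 and 0.28. Those of the wild-type embryos correlated at 0.49, -0.06 and -0.20. Replicates are separate embryos, per the labels. Only 3 arrays per group limit the precision.

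Named genes are the 15 largest rises and falls whose groups do not overlap, from every list at most 4 that passed (taken by adjusted p), a set of TGF-β, nuclear factor I and fibroblast genes, and the 5 genes with the smallest p for the genotype difference. The comparison, the lists and the rule were chosen with earlier results of these data known. A summed list level is the log2 of the sum of the members' linear values. The scripts were tested on simulated data with known changes. Alternatives changed the block, the filter, the scaling, the probe set rule, the variance prior, the threshold and the arrays used; a fit of only the 9 knock-out arrays was added after seeing the data.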

Additional observations from a re-analysis of the deposited data

How the results depend on the processing

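In the settings that left out 1 knock-out embryo, all 5509 genes kept the sign of their 10 h change. Dropping the embryo block, fitting only the 6 or only the 9 knock-out arrays, or leaving out a wild-type embryo does not alter the change itself in this balanced design. Its sign could not turn there, and only the spread and the calls could differ. Of 214 named genes that passed, 176 passed in every setting that tested them and 0 turned sign. A filter at the 60th percentile tested 10370 genes, so a dim named gene could be absent from that setting. The number passed was 3879 to 4499 with 1 knock-out embryo left out and 5136 to 5972 with 1 wild-type embryo left out. It was 4745 without the replicate block and 3844 to 5722 over the settings that left out no single embryo. Genes at least 2-fold lower numbered 328 with the mean of all probe sets (528 with the brightest). At a threshold of 0.01, 3649 genes passed in wild type (5492 at 0.05) and 46 in the knock-out at 1 h (101); the latter were 67 without the replicate block and 25 (without knock-out embryo 3) to 116 (without wild-type embryo 2) with an embryo left out. Values that turned sign belonged to 3 genes that did not pass and to list medians. With the mean of all probe sets Nfic was 0.0051, Smad2 0.0485, Col1a1 0.436 and the SMAD list median 0.0335. Col1a1 was 0.0041 with arrays centred, 0.0219 with quantile normalization and -0.1415 to 0.0573 with a knock-out embryo left out. Smad2 ranged there from -0.2139 to 0.1243, and the median of the complement list from -0.1434 to 0.0302. The upper ends were without embryo 1, and the causes were not tested. Across scalings the median change of all tested genes stayed between -0.03 and -0.01. Probe sets near the top of the range, as for Acta2 and Col1a1, limit what a small change shows.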

Other observations

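Gene families grouped by the first letters of their symbols, chosen after their values were seen, gave further runs of changes in the labelled knock-out cells at 10 h. Of 293 tested zinc finger genes whose symbol starts with Zfp, 111 fell (37.9%, against 24.2% of all tested genes) and 24 rose (8.19%, against 16.0%), with a median change of -0.18. Zfp521, a multi-finger factor of mesenchymal and blood progenitors, went from 9.16, 9.04 and 9.22 in untreated embryos 1, 2 and 3 to 6.61, 7.08 and 7.10 (-2.21 ± 0.18 in limma), and no treated value reached an untreated one. Zfp36l1, which promotes decay of AU-rich messages, changed by -1.25 ± 0.12, and Zfp469, known from collagen-rich corneal stroma, rose by 1.31 ± 0.08. Without embryo 1, 75 Zfp genes fell and 17 rose, and in wild-type cells 90 fell and 27 rose.

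Genes of the early secretory pathway with the prefix Sec rose in 13 of 25 cases (52.0%, against 16.0% of all tested genes) and fell in 2 (Sec14l1 and, with embryo 1 only, Sec22c), with a median of 0.29, while vacuolar sorting genes with the prefix Vps fell in 13 of 33 cases (39.4%, against 24.2%) and rose in 1 (Vps54), with a median of -0.21. Sec23b, a coat subunit of vesicles that leave the endoplasmic reticulum, went from 9.63, 9.46 and 9.15 to 10.44, 10.42 and 10.33 (0.98 ± 0.08), and its cargo-binding partners Sec24d and Sec24a changed by 0.67 ± 0.10 and 0.65 ± 0.11. Without embryo 1 the counts were 11 higher and 1 lower for Sec genes and 7 lower and 1 higher for Vps genes. Of 20 Nudt genes, which encode nucleotide-derivative hydrolases, 11 fell (55.0%, against 24.2% of all tested genes; 7 without embryo 1) and 1 rose. The rise was Nudt6, from 7.60, 7.34 and 7.44 to 9.59, 10.01 and 10.01 (2.41 ± 0.12); this gene lies antisense to Fgf2, which changed by 2.61 ± 0.24.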
